A study of Mus musculus with 10 samples.

Results

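The genes described here are the collagen and laminin genes of mouse embryonic stem cells that were driven to differentiate after an siRNA. They were chosen by name from the array's annotation, as every symbol of a collagen chain or of a laminin alpha, beta or gamma chain except Col4a1, Col4a2 and Lama1. The rule itself uses names and no measured value, but it was set with earlier results of these data known. The rule gave 49 genes of 18194 measured, 40 collagens and 9 laminins. Cells of the line NG4 took up siRNA during plating and then differentiated with retinoic acid, a vitamin A derivative that directs embryonic stem cells towards neural fates, and RNA was taken at 48 h. There were 2 arrays in each of 5 groups, all of the same line and all given retinoic acid: siNonTarget, the control siRNA, and siSox17, siFbxw7, siSocs3 and siRnf31, each named for a gene. The labels give no untransfected or undifferentiated cells, name 1 cell line, and do not say whether the 2 replicates of a group were separate cultures, so the errors and p-values measure the spread between these arrays, which may be technical.

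Collagens are trimers whose chains wind into a triple helix. Fibrillar collagens form the cable-like fibres of connective tissue and cartilage, network collagens form the sheets of basement membranes, FACIT collagens sit on the surface of fibres, and other members span the cell membrane or carry large non-helical ends. Laminins are cross-shaped trimers of an alpha, a beta and a gamma chain that start basement membranes and give embryonic stem cells and their descendants a surface to polarise on. Fibrillar collagens are best known from mesenchymal cells such as fibroblasts, and laminins from epithelia and from the first basement membranes of the embryo. In RNA of whole cultures, fewer cells of a type and less RNA per cell cannot be told apart.

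The 10 arrays had medians of 46.39 to 47.95 intensity units, that is 5.54 to 5.58 on the log2 scale on which all levels below are given. A difference of 1 on that scale is a 2-fold difference. The brightness of different probe sets does not rank their transcripts, so levels are compared only within a gene. The sums of linear intensity given below for marker lists are compared only between arrays. In such a sum the brightest genes weigh most, so it does not measure the amount of a cell type. Against siNonTarget, 0 of the 4 genes named by the siRNAs changed in limma's test: the difference was 0.03 ± 0.53 (SE) for Sox17 (limma, adjusted p = 0.988), -0.25 ± 0.15 for Fbxw7 (0.775) and -0.40 ± 0.17 for Rnf31 (0.778). Socs3 itself was 0.44 ± 0.24 higher in the arrays labelled siSocs3 (0.281), the direction opposite to a knockdown, so siSocs3 below stands for the arrays labelled so and no more. The actin 3'-to-5' signal difference, a gauge of RNA integrity, was 0.50 on siNonTarget 1 and 0.60 on siFbxw7 1 against 0.21 to 0.29 on the other 8 arrays.

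Of the 49 genes, 20 were above the array's median on all 10 arrays, 19 on none and 10 on some. The share above the median throughout was 40.8%, against 61% of all genes. The 20 were 16 collagens and 4 laminins. Among the fibrillar collagens they were 6 of 11, Col1a1, Col1a2, Col2a1, Col5a1, Col5a2 and Col27a1. Among the FACIT collagens they were 5 of 9, Col9a1, Col9a2, Col12a1, Col16a1 and Col20a1. The membrane-spanning collagens contributed 2 of 4, Col13a1 and Col25a1, and the remaining collagens 3 of 9, Col6a2, Col7a1 and Col18a1. None of the 7 chains of types IV, VIII and X, the network-forming collagens left after Col4a1 and Col4a2 were set aside, was above the median on all arrays. Col18a1, which also lies in basement membranes, is counted with the remaining collagens. The laminins above it were Lama5, Lamb1, Lamb2 and Lamc1, at least 1 chain of each kind.

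**Figure D1:**
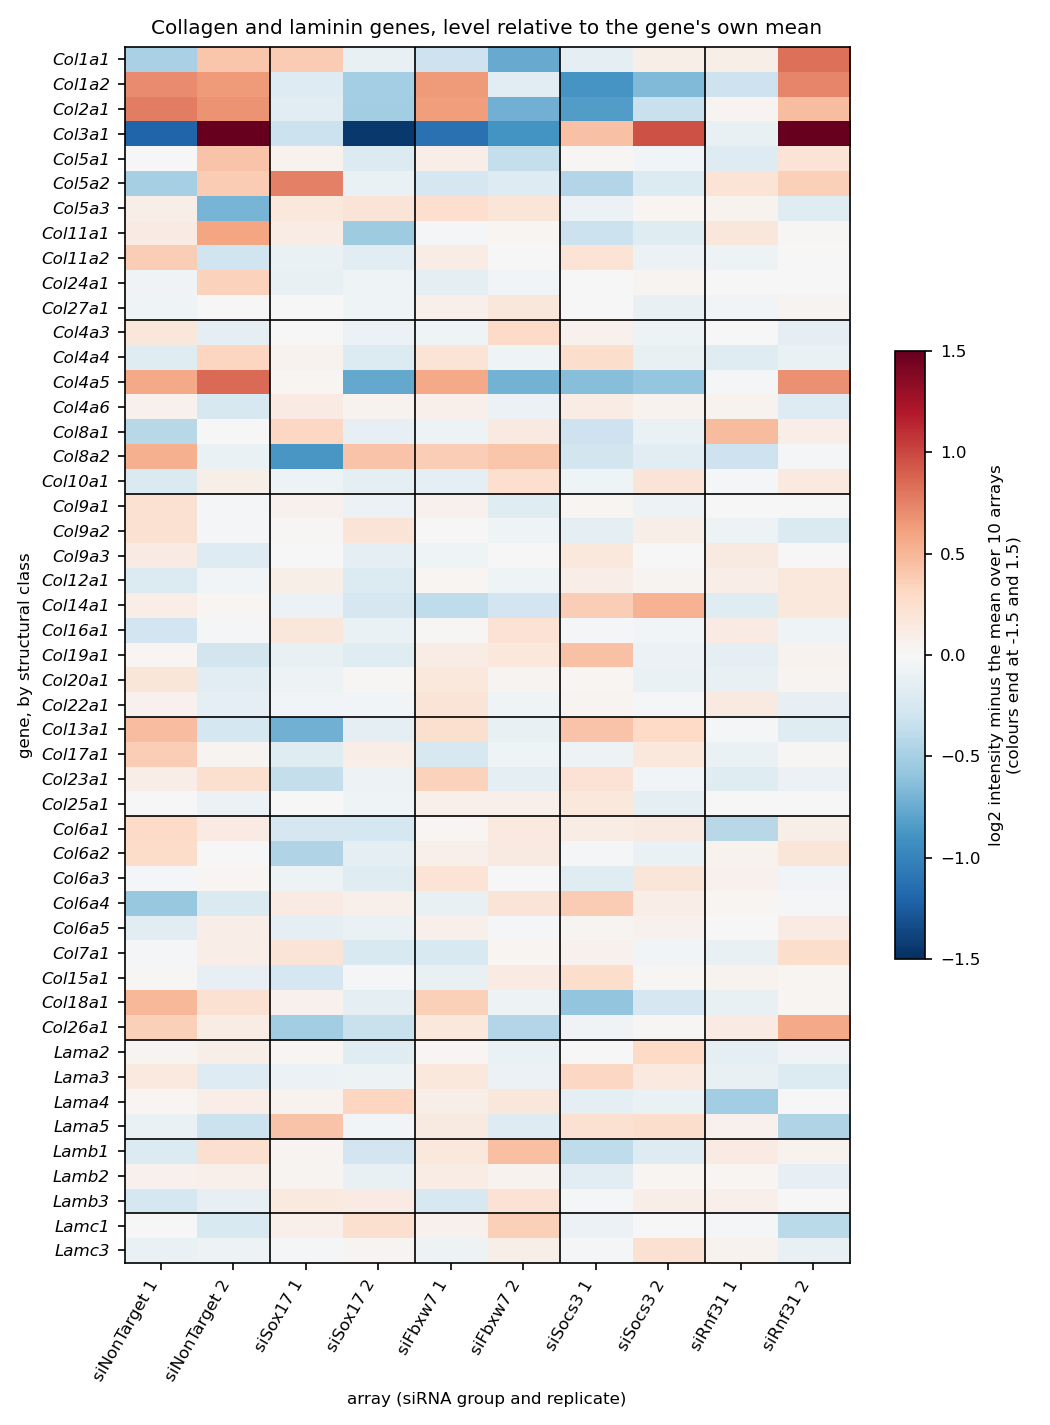
Level of each of the 49 collagen and laminin genes on each of the 10 arrays, shown relative to that gene's mean over all arrays (log2), grouped by structural class, red above and blue below the mean, with the colours ending at a difference of 1.5. The ranges over the arrays run from 0.27 to 3.42, and Col3a1 has the widest.

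The spread over the arrays differed between the genes. The range from the lowest to the highest array had a median of 0.65, against 0.49 over all genes. It was at least 1 for 11 genes and under 0.5 for 17. Lamb2, the beta chain of muscle and kidney basement membranes, and Col27a1, a cartilage fibrillar collagen, both ranged over 0.28. Col1a2, a chain of type I collagen, ranged over 1.62 and Col2a1, the main cartilage collagen, over 1.60.

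In the arrays labelled siSocs3, 3 of the 49 genes passed the test against siNonTarget (limma, Benjamini-Hochberg adjusted p under 0.05), which is 6.12% of them beside 9.26% of all genes. Col18a1 and Col1a2 fell, 4.08% of the 49 beside 5.66% of all genes, and Col6a4 rose, 2.04% beside 3.59%. At an unadjusted p under 0.05 there were 7, 14.3% beside 26.2%. These shares were below those of all genes, and the median difference of the 49 was 0.00 against 0.03 over all genes.

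Col18a1 encodes the basement membrane collagen whose end fragment is endostatin. It measured 12.36 and 12.10 in siNonTarget, 11.93 and 11.73 in siSox17, 12.22 and 11.79 in siFbxw7, 11.27 and 11.61 in siSocs3, and 11.76 and 11.89 in siRnf31. Both siSocs3 arrays were below all 8 others. The fall in siSocs3 against siNonTarget was -0.80 ± 0.18 (SE, n = 2 arrays a group; limma, adjusted p = 0.0278). A second probe set of Col18a1 gave -0.55 ± 0.16. The call was lost without siNonTarget 1 (adjusted p = 0.137) and without siSocs3 1 (0.217).

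Col1a2, which pairs with Col1a1 in type I collagen, measured 9.60 and 9.52 in siNonTarget, 8.69 and 8.38 in siSox17, 9.52 and 8.73 in siFbxw7, 8.0 and 8.22 in siSocs3, and 8.58 and 9.62 in siRnf31. Both siSocs3 arrays were the lowest of the 10, while 1 of the siFbxw7 arrays and 1 of the siRnf31 arrays reached the control. The fall in siSocs3 was -1.45 ± 0.33 (limma, adjusted p = 0.0309), and its other probe sets gave -1.32 ± 0.32 and, on a dim one, -0.27 ± 0.12. The call was lost on leaving out any 1 array of siNonTarget, siSocs3 or siSox17, with adjusted p from 0.0512 to 0.208 and falls of -1.34 to -1.57. Col1a1, the partner chain, measured 5.84 and 6.75 in siNonTarget and 6.18 and 6.42 in siSocs3, within the control's range. It differed by 0.00 ± 0.33 (limma, adjusted p = 0.999). A second, dimmer Col1a1 probe set measured 5.30 and 5.45 in siNonTarget and 5.89 and 5.65 in siSocs3, where both arrays were above the control.

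Col6a4, a chain of the type VI beaded-filament collagens, measured 5.10 and 5.45 in siNonTarget, 5.79 and 5.74 in siSox17, 5.56 and 5.86 in siFbxw7, 6.05 and 5.77 in siSocs3, and 5.70 and 5.64 in siRnf31. Both control arrays were the lowest of the 10. The rise in siSocs3 was 0.63 ± 0.15 (limma, adjusted p = 0.0378). A second, dimmer probe set gave 0.21 ± 0.10. The call was lost in 11 of 19 other settings, among them leaving out siNonTarget 1 or any 1 array of siSocs3, siSox17 or siRnf31 (adjusted p from 0.0546 to 0.261). Its level on both control arrays was below the array median. Without siNonTarget 1 and siFbxw7 1, the arrays of high actin difference, the adjusted p was 0.0739 for Col18a1, 0.0753 for Col1a2 and 0.12 for Col6a4.

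The promoter sequences of these 3 genes are shown because they are the members that changed against siNonTarget. Each line gives the 250 bases upstream of an annotated start, from RefSeq on GRCm38.p6, read 5' to 3' on the gene's strand. The windows are chr6:4505368-4505617 on the plus strand for Col1a2, chr9:106096692-106096941 on the minus strand for Col6a4, and chr10:77166531-77166780 and chr10:77113706-77113955, both on the minus strand, for the annotated starts of Col18a1. Capitals mark matches on either strand to CCAAT or GGGCGG, the boxes named for the NF-Y and Sp1 factors.
Col1a2: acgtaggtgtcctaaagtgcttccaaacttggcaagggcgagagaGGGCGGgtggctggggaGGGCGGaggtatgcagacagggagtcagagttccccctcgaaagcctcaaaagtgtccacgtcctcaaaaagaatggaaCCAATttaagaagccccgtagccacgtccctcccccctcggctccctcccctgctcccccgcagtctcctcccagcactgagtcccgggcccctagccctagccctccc
Col6a4: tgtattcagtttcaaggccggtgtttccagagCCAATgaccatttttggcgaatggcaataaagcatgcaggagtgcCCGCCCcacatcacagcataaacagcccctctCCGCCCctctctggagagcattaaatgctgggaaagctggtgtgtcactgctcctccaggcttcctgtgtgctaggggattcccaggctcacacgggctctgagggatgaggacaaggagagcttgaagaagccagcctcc
Col18a1, upstream start: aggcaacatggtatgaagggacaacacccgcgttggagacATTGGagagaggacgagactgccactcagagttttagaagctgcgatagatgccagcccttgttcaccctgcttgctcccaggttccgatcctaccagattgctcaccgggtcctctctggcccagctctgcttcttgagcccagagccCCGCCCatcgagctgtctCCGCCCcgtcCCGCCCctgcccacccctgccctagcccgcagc
Col18a1, downstream start: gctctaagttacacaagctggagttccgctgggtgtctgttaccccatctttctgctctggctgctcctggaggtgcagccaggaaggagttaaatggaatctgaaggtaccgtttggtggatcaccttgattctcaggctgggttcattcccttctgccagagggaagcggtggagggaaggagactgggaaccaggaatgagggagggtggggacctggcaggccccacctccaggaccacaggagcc

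Searched on both strands, the Col1a2 window and the Col6a4 window each held 1 CCAAT and 2 GGGCGG. The upstream Col18a1 window held 1 CCAAT and 3 GGGCGG and the downstream window held none. None of the 4 windows held AGGTCA, the half-site bound by retinoic acid receptors, or TTCNNNGAA, the pattern bound by STAT factors, and no motif overlapped another. Over all 32851 promoter windows of that length, 33.8% held CCAAT, 32.7% GGGCGG, 14% AGGTCA and 7.02% TTCNNNGAA. Of the 40 windows found for 36 of the 49 genes, 12 (30%) held CCAAT, 22 (55%) GGGCGG, 8 (20%) AGGTCA and 2 (5%) TTCNNNGAA. A match is only a description of the letters.

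**Figure D2:**
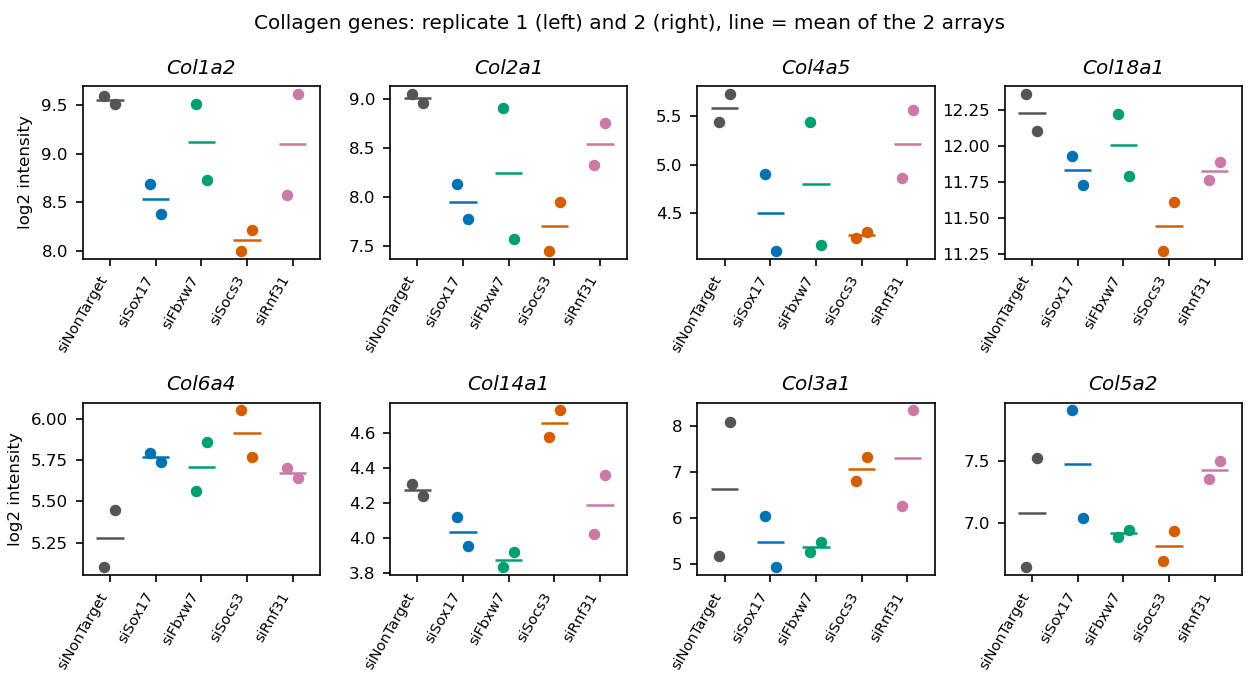
Log2 intensity of 8 collagens (Col1a2, Col2a1, Col4a5, Col18a1, Col6a4, Col14a1, Col3a1 and Col5a2) by siRNA group, 1 point an array, replicate 1 left of replicate 2, with a line at the mean of the 2 arrays. In Col1a2 and Col18a1 both siSocs3 arrays lie lowest, and in Col6a4 both siNonTarget arrays do.

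Among the fibrillar and network collagens, Col2a1 and Col4a5 had differences of over 2-fold that did not pass. Col2a1 measured 9.05 and 8.96 in siNonTarget, 8.13 and 7.77 in siSox17, 8.91 and 7.57 in siFbxw7, 7.45 and 7.95 in siSocs3, and 8.33 and 8.75 in siRnf31. Its difference in siSocs3 was -1.31 ± 0.37 (adjusted p = 0.0602). Col4a5, a chain of the type IV collagen of mature basement membranes, measured 5.44 and 5.73 in siNonTarget, 4.90 and 4.11 in siSox17, 5.44 and 4.17 in siFbxw7, 4.24 and 4.30 in siSocs3, and 4.86 and 5.56 in siRnf31, and differed by -1.32 ± 0.41 (0.0765). With either siFbxw7 array left out both passed, Col2a1 with adjusted p = 0.00841 and Col4a5 with 0.0246. Another Col4a5 probe set differed by only -0.18 ± 0.11.

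Col1a2, Col2a1 and Col4a5 had their 4 highest levels on the same arrays: both siNonTarget arrays, siFbxw7 1 and siRnf31 2. This was seen after the values were known. Of the 49 genes 3 had that order (6.12%), beside 1175 of all genes (6.46%), which is near the share of all genes. Over the list, 43 of the 49 differed by under 0.5 and 3 by at least 1, and the fibrillar collagens had a median difference of -0.13, the FACIT collagens 0.11, the membrane-spanning collagens -0.01, the laminins 0.08 and all 49 genes between -1.45 and 0.63.

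**Figure D3:**
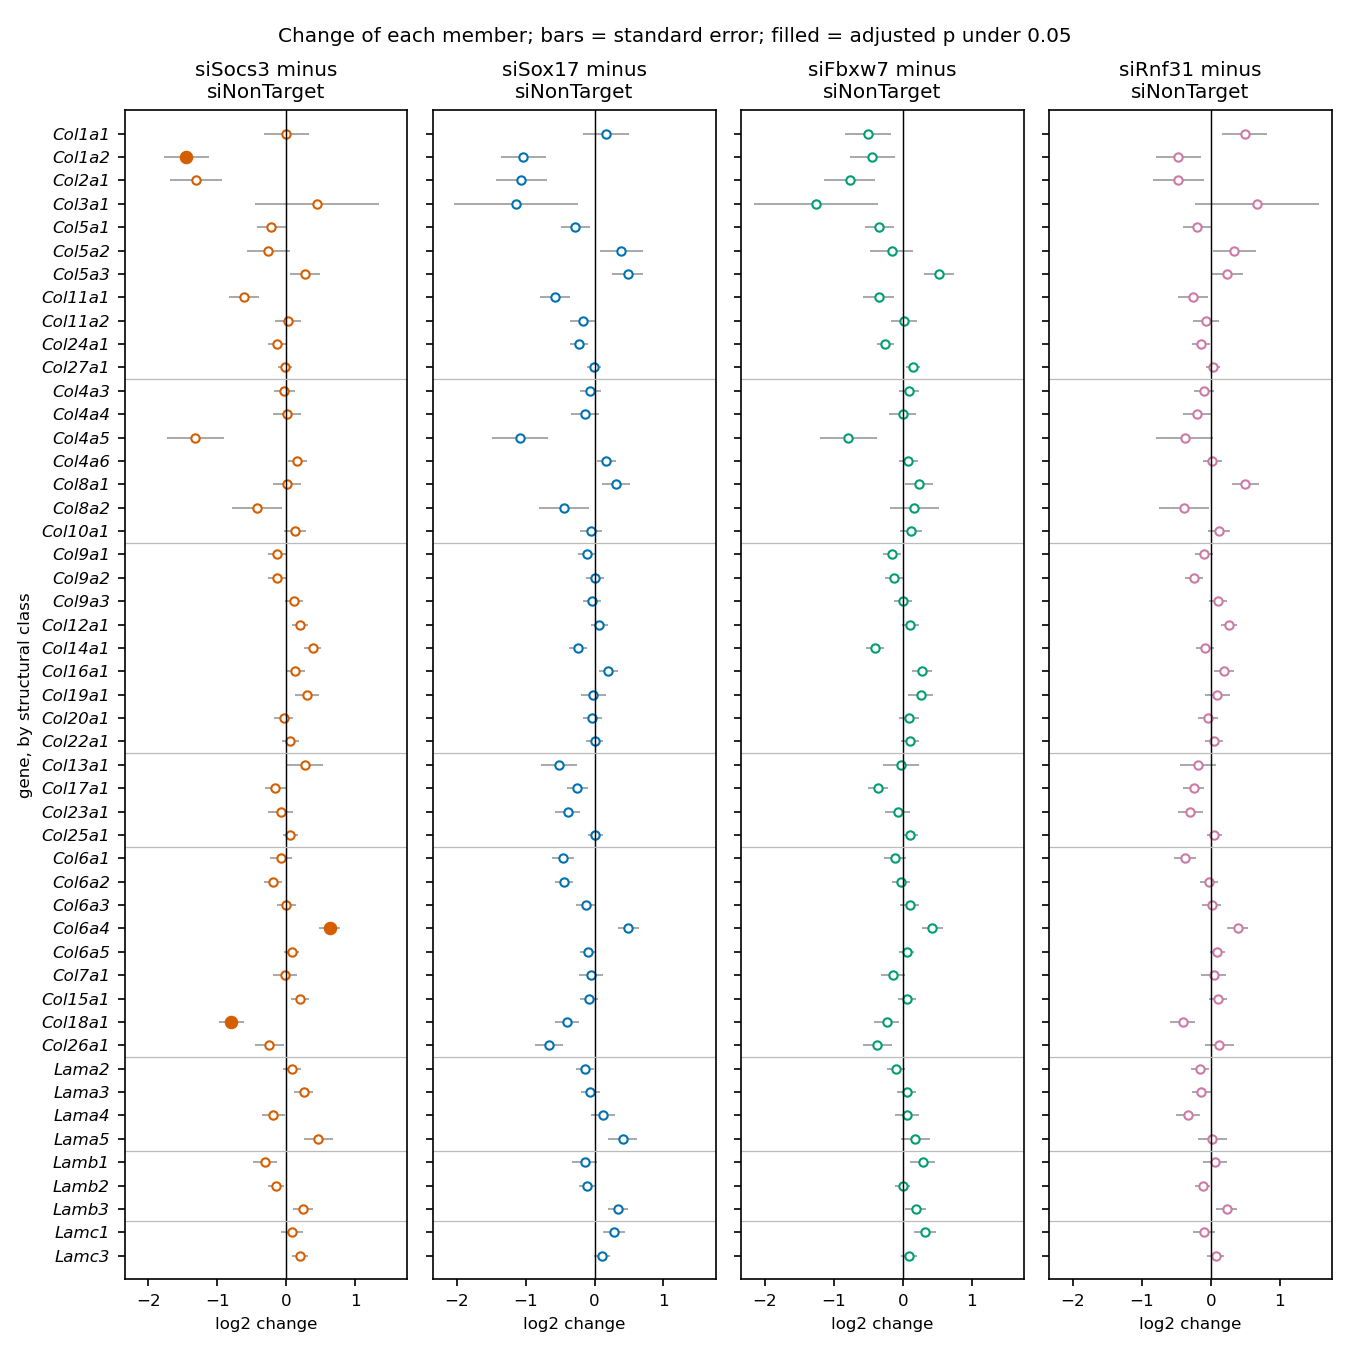
Difference from siNonTarget (log2) of each of the 49 genes in each of the 4 siRNA groups, 1 point a gene, filled where it passed, with a bar for the standard error of the model. In siSocs3 the genes that passed are Col18a1, Col1a2 and Col6a4, and in the other groups none passed.

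In siSox17, 0 of the 49 genes passed limma's test against siNonTarget, beside 0.0055% of all genes, and 10 (20.4%) had an unadjusted p under 0.05, beside 17.3%. Of those 10, 8 were lower (16.3% of the 49, beside 9.39% of all genes), and Col6a4 and Lamb3 were higher (4.08%, beside 7.93%). The median difference was -0.08 beside -0.0 over all genes, with 33 of the 49 below 0. The smallest p belonged to Col6a2, another type VI chain, at -0.44 ± 0.13 (adjusted p = 0.167), Col26a1 at -0.66 ± 0.21 (0.172) and Col6a4 at 0.49 ± 0.15 (0.174). Col26a1 measured 5.40 and 5.16 in siNonTarget and 4.53 and 4.71 in siSox17, with no overlap. Col1a2 differed by -1.03 ± 0.33 (0.180) and Col2a1 by -1.06 ± 0.37 (0.202), and both passed when only the arrays of these groups were fitted. All 4 comparisons with siNonTarget share its 2 arrays.

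In siFbxw7, 0 of the 49 passed, beside 0% of all genes, and 4 (8.16%) had an unadjusted p under 0.05, beside 6.45%: Col14a1, a FACIT collagen of tendon and skin, at -0.40 ± 0.13, Col17a1, which anchors epithelia, at -0.36 ± 0.15, Col5a3 at 0.53 ± 0.22 and Col6a4 at 0.43 ± 0.15, each with adjusted p = 0.752. In siRnf31, 0 of the 49 passed, beside 0% of all genes, and again 4 (8.16%) had an unadjusted p under 0.05, beside 5.87%: Col18a1 at -0.41 ± 0.18, Col6a1 at -0.37 ± 0.16, Col6a4 at 0.39 ± 0.15 and Col8a1, a chain of vessel and corneal matrix, at 0.50 ± 0.20, each with adjusted p = 0.778. The median difference was 0.02 in siFbxw7 and -0.03 in siRnf31.

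In direct comparisons of the targeted groups, Col14a1 was the member that passed. It measured 4.31 and 4.24 in siNonTarget, 4.12 and 3.95 in siSox17, 3.83 and 3.92 in siFbxw7, 4.58 and 4.73 in siSocs3, and 4.02 and 4.36 in siRnf31, below the array median on every array. Both siSocs3 arrays were above all others. It was higher in siSocs3 than in siFbxw7 by 0.78 ± 0.13 (limma, adjusted p = 0.0161), 1 of the 49 genes (2.04%) beside 3.51% of all genes. It was also higher in siSocs3 than in siSox17 by 0.62 ± 0.13 (0.0461), again 1 of 49 (2.04%) beside 2.61%. Its other probe sets gave 0.14 ± 0.13 and 0.03 ± 0.16 against siFbxw7, and 0.16 ± 0.13 and -0.13 ± 0.16 against siSox17. Without siFbxw7 1, siSocs3 1 or siSocs3 2 the first call was lost, with adjusted p of 0.111, 0.0994 and 0.0959. The second was lost on leaving out any 1 array of siNonTarget, siSox17, siFbxw7 or siSocs3, with adjusted p from 0.0559 to 0.213. Without both arrays of high actin difference they were 0.114 and 0.0586. Between siSocs3 and siRnf31, 0 of the 49 passed in limma beside 2.13% of all genes, and 5 (10.2%) had an unadjusted p under 0.05 beside 16.9%. In siSox17 against siFbxw7, siSox17 against siRnf31 and siFbxw7 against siRnf31, 0 passed beside 0% of all genes, and 2, 4 and 5 of the 49 (4.08%, 8.16% and 10.2%) had an unadjusted p under 0.05 beside 5.59%, 7.68% and 5.19%.

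None of the 9 laminins passed in any of the 10 comparisons, in which 0% to 9.26% of all genes passed. Lamb1, a beta chain of the earliest embryonic laminins, measured 10.62 and 11.06 in siNonTarget, 10.86 and 10.53 in siSox17, 10.98 and 11.27 in siFbxw7, 10.44 and 10.63 in siSocs3, and 10.94 and 10.87 in siRnf31. Lamc1, the gamma chain of most laminins, measured 9.23 and 9.01, 9.32 and 9.48, 9.30 and 9.60, 9.15 and 9.25, and 9.21 and 8.84 in the same order of groups. Lama5, the alpha chain of adult epithelial laminins that also supports embryonic stem cells in culture, measured 9.21 and 8.98, 9.73 and 9.27, 9.44 and 9.11, 9.53 and 9.57, and 9.37 and 8.85. In each of these genes the control arrays overlapped at least 1 other group. The largest laminin differences in siSocs3 against siNonTarget were 0.46 ± 0.21 for Lama5 (limma, adjusted p = 0.201) and -0.31 ± 0.18 for Lamb1 (0.310). Against siFbxw7, Lamb1 in siSocs3 differed by -0.59 ± 0.18 (limma, adjusted p = 0.112), with both siSocs3 arrays below both siFbxw7 arrays. In siFbxw7, 8 of the 9 laminins were above 0, with a median of 0.09 beside 0.0 over all genes. Among the 8, Lamb2 was at 0.00 ± 0.11, Lama3 at 0.06 ± 0.14 and Lama4 at 0.06 ± 0.17. Lamb1 differed by 0.29 ± 0.18 and Lamc1 by 0.33 ± 0.16 (limma, adjusted p = 0.775 and 0.758).

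The excluded Lama1, Col4a1 and Col4a2 are the major chains of the embryo's first basement membranes. Lama1 measured 9.61 and 8.42 in siNonTarget, 9.74 and 9.81 in siFbxw7, and 7.79 and 7.97 in siSocs3. Between siSocs3 and siFbxw7 it differed by -1.89 ± 0.34 (limma, adjusted p = 0.02), Col4a1 by -0.99 ± 0.21 (0.0365) and Col4a2 by -0.82 ± 0.16 (0.0305). In siSocs3 against siFbxw7, these calls were lost on leaving out any 1 array of siFbxw7 or siSocs3 for Lama1 (adjusted p up to 0.181), siFbxw7 2 or any 1 array of siSocs3, siSox17 or siRnf31 for Col4a1 (up to 0.291), and any 1 array of siSocs3, siSox17 or siRnf31 for Col4a2 (up to 0.263). Against siNonTarget, Lama1 in siSocs3 was at -1.14 ± 0.34 (limma, adjusted p = 0.0695) and did not pass. Col4a1 averaged 10.56 in siNonTarget, 10.59 in siSox17, 11.29 in siFbxw7, 10.30 in siSocs3 and 10.24 in siRnf31. Col4a2 averaged 8.77, 8.86, 9.44, 8.62 and 8.55 in the same order, so both were highest in siFbxw7 and lowest in siRnf31. In siFbxw7 against siNonTarget they differed by 0.73 ± 0.21 and 0.67 ± 0.16, and neither passed (limma, adjusted p = 0.752 for each).

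**Figure D4:**
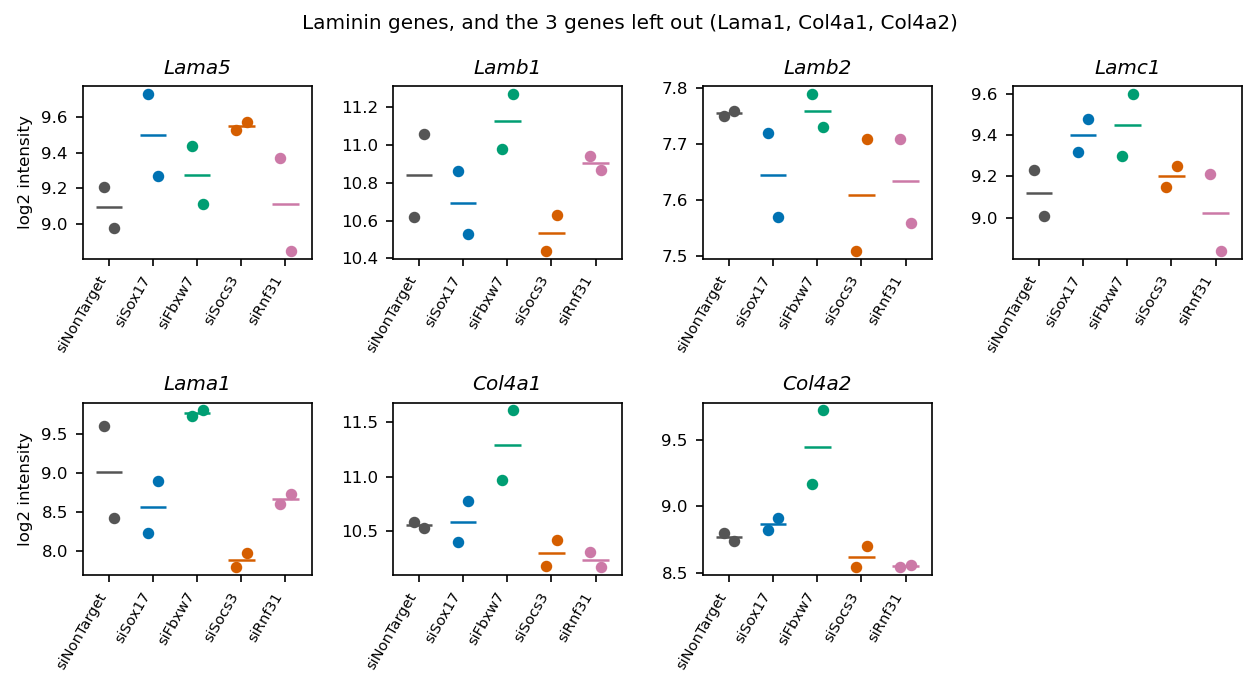
Log2 intensity of Lama5, Lamb1, Lamb2 and Lamc1 and of the excluded Lama1, Col4a1 and Col4a2 by siRNA group, 1 point an array, with a line at the mean of the 2 arrays. Lama1, Col4a1 and Col4a2 lie higher in siFbxw7 than in siSocs3, with Lama1 at 9.74 and 9.81 against 7.79 and 7.97.

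Some collagens differed as much between replicate arrays as between groups. Col3a1, the collagen of reticular fibres and loose connective tissue, measured 5.17 and 8.10 in siNonTarget, 6.05 and 4.93 in siSox17, 5.26 and 5.48 in siFbxw7, 6.81 and 7.33 in siSocs3, and 6.26 and 8.35 in siRnf31. Its 2 siNonTarget arrays differed by 2.93 and its 2 siRnf31 arrays by 2.09, and all other arrays lay between the 2 siNonTarget arrays except the lower siSox17 array and the higher siRnf31 array. Its difference in siSocs3 was 0.44 ± 0.90 and did not pass, and a second probe set gave -0.47 ± 0.52, the opposite sign. Dcn, which encodes the fibril-binding proteoglycan decorin, measured 5.48 and 6.63 in siNonTarget and 5.83 and 6.69 in siRnf31, high on the same arrays. Col1a1 measured 5.84 and 6.75 in siNonTarget and 6.42 and 7.16 in siRnf31. Dcn and Col1a1 were set beside Col3a1 after the values were seen.

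Of the 11 fibroblast markers that are not members, 6 were at or below the array median on all arrays: Thy1, Postn, Lum, Prrx1, Fap and S100a4. Their summed intensity was 1003 and 1188 in siNonTarget, 1004 and 1061 in siSox17, 1043 and 1196 in siFbxw7, 1080 and 1139 in siSocs3, and 965.6 and 1218 in siRnf31. It was high on the siNonTarget and siRnf31 arrays where Col3a1 was high, and also on siFbxw7 2, where Col3a1 was at 5.48. On siFbxw7 2 the marker Pdgfra, also listed for extraembryonic endoderm, had its highest level of all arrays, 8.65. The markers Dcn, Twist1 and Twist2 were at 5.53, 7.12 and 5.07 there, each below its own median over the arrays. Of the 11, 1 passed in siSocs3 against siNonTarget, beside 9.26% of all genes, which is near the same share. It was Twist1, a mesenchymal transcription factor. Twist1 measured 7.93 and 8.04 in siNonTarget and 6.38 and 6.80 in siSocs3. The part of fibroblast-like cells in these levels was not tested.

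Neural progenitor markers changed in the same comparison as Col1a2 and Col18a1. In siSocs3, 7 of the 9 genes of that list fell, where 5.66% of all genes fell and 3.59% rose. The summed intensity of the 9 was 4252 and 3588 in siNonTarget and 1263 and 1699 in siSocs3. It was 2771 and 2768 in siSox17, 3715 and 2484 in siFbxw7, and 2811 and 3322 in siRnf31. Of the 8 embryonic stem cell markers 4 rose in siSocs3 (Nanog, Zfp42, Esrrb and Tdgf1). The 8 summed to 28630 and 25610 in siNonTarget and 45310 and 43040 in siSocs3. They summed to 34640 and 37540 in siSox17, 28680 and 33200 in siFbxw7, and 35890 and 27590 in siRnf31. Of the 17 extraembryonic endoderm markers 2 fell in siSocs3 (Foxa2 and Plat), and of the 7 neural crest markers 1 rose (Erbb3) and 1 fell (Ednrb). No endothelial, chondrocyte or surface epithelium marker passed in siSocs3 against siNonTarget. The surface epithelium sum was 6993 and 18660 in siNonTarget and 18120 and 20370 in siSocs3, so the control arrays differed widely. It was lowest on siNonTarget 1 and, at 8995, on siFbxw7 1, the arrays of high actin difference. The part of these marker shifts in the collagen differences was not tested.

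**Figure D5:**
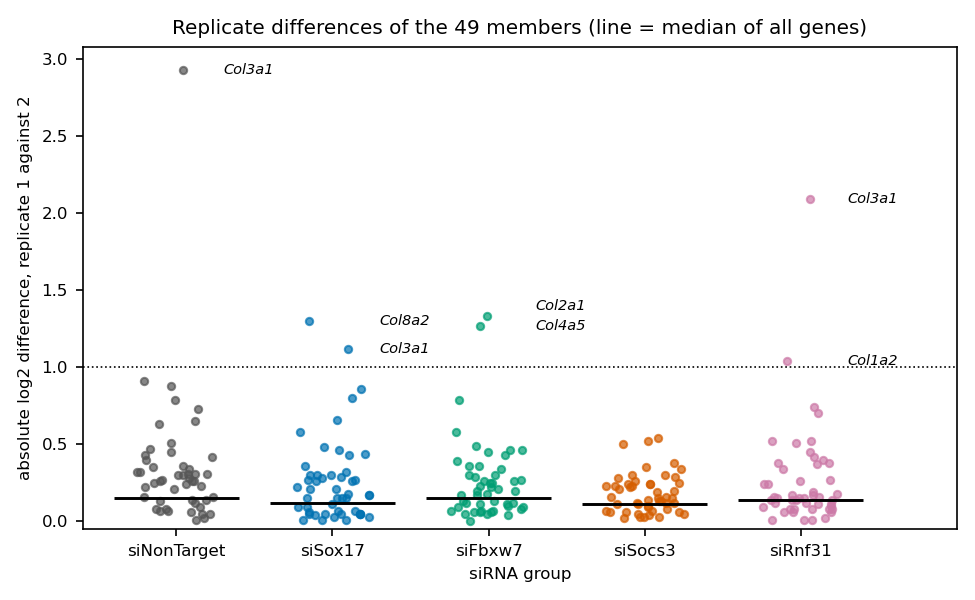
Difference between the 2 arrays of each group (log2) for the 49 genes, 1 point a gene, in each of the 5 groups, with a bar at the median of all genes and a dotted line at a 2-fold difference. The siNonTarget arrays differed by 2.93 in Col3a1, and in the siSocs3 arrays no gene differed by 1 or more.

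In all, 5 of the 49 genes differed at least 2-fold between the 2 arrays of some group, on the probe set that stood for the gene. Besides Col3a1 they were Col8a2 in siSox17 (1.30 on the log2 scale), Col2a1 (1.33) and Col4a5 (1.27) in siFbxw7, and Col1a2 in siRnf31 (1.04). Col3a1 also differed by 1.12 in siSox17. The median replicate difference of the 49 genes was 0.27, 0.18, 0.20, 0.15 and 0.15 in siNonTarget, siSox17, siFbxw7, siSocs3 and siRnf31, against 0.15, 0.12, 0.15, 0.11 and 0.14 over all genes. Col8a2, a network collagen of the cornea, measured 3.98 and 5.28 in siSox17, and siNonTarget's 5.39 and 4.76 overlapped that range.

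Other members did not pass in any comparison, where at most 9.26% of all genes did. Col7a1, the anchoring fibril collagen of skin, measured 7.07 and 7.20 in siNonTarget and from 6.87 to 7.37 over all arrays. Col16a1, a FACIT collagen, measured 6.45 and 6.71 in siNonTarget and from 6.45 to 6.96 over all arrays. Col12a1, of the same class, measured from 5.80 to 6.17 on the probe set that stood for it. Another Col12a1 probe set varied more, at 5.29 and 6.85 in siNonTarget, 6.83 and 5.34 in siSox17, and 6.89 and 6.90 in siRnf31. The ranges of Col7a1 and Col16a1 were 0.51 and 0.52, near the median of all genes, 0.49. Col25a1, a membrane-spanning collagen of neurons, lay between 5.61 and 5.91. A second, dimmer Col25a1 probe set measured 4.54 and 4.69 in siNonTarget, above all other arrays, 3.81 and 3.76 in siSox17, and 3.95 and 4.04 in siSocs3. Col13a1, a membrane-spanning collagen of the neuromuscular junction, measured 7.95 and 7.22 in siNonTarget and 6.77 and 7.35 in siSox17. It measured 7.73 and 7.37 in siFbxw7, 7.91 and 7.79 in siSocs3, and 7.47 and 7.30 in siRnf31. Its largest difference from the control was -0.52 ± 0.26 in siSox17 (limma, adjusted p = 0.338).

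The type V chains help to set the width of collagen fibres. None of Col5a1, Col5a2 and Col5a3 passed in any comparison, where at most 9.26% of all genes did. Col5a1 measured 7.50 and 7.93 in siNonTarget, 7.56 and 7.30 in siSox17, 7.61 and 7.15 in siFbxw7, 7.52 and 7.46 in siSocs3, and 7.31 and 7.71 in siRnf31, with overlap between the control and each other group. Col5a2 measured 6.65 and 7.52 in siNonTarget, 7.90 and 7.04 in siSox17, 6.89 and 6.95 in siFbxw7, 6.70 and 6.94 in siSocs3, and 7.35 and 7.50 in siRnf31. Its differences from the control ran from -0.26 ± 0.31 in siSocs3 to 0.39 ± 0.31 in siSox17. Col5a3 measured 5.05 and 4.26 in siNonTarget, 5.12 and 5.16 in siSox17, 5.22 and 5.15 in siFbxw7, 4.88 and 4.99 in siSocs3, and 5.02 and 4.78 in siRnf31, below the array median on every array. Both its siFbxw7 arrays were above the control, at a difference of 0.53 ± 0.22 (unadjusted p = 0.0369, adjusted p = 0.752), and in siSocs3 it passed only without both arrays of high actin difference. Col11a1, a cartilage fibrillar collagen, measured 6.17 and 6.64 in siNonTarget, 5.72 and 5.87 in siSocs3 and 6.16 and 5.51 in siSox17, and differed by -0.61 ± 0.22 in siSocs3 (0.110) and -0.57 ± 0.22 in siSox17 (0.224). Col5a1, Col5a2 and Col11a1 were chosen for description after their values were seen.

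The genes that make, bind and cut collagen and laminin were listed apart from the members, in 5 lists of 133 genes in all. In siSocs3 against siNonTarget 6 rose and 14 fell, where 3.59% and 5.66% of all genes did, with a median of -0.07 beside 0.03 over all genes. Of 30 collagen processing genes, P4ha2, a prolyl hydroxylase that stabilises the triple helix, rose by 0.73 ± 0.16 (limma, adjusted p = 0.0286), and P3h2 and P3h3, prolyl 3-hydroxylases, fell at -1.29 ± 0.32 (0.0382) and -0.61 ± 0.16 (0.0478). The call was lost in 16 of 19 other settings for P3h3, in 9 of 19 for P3h2 and in 5 of 20 for P4ha2. Of 18 basement membrane partners, Egfl6 (1.39 ± 0.29) and Nid1, which links laminin to type IV collagen (0.68 ± 0.17), rose, and Pxdn, which crosslinks type IV collagen (-1.31 ± 0.22), and Frem1 (-1.10 ± 0.20) fell. The median of that list was -0.22. Frem1 was below the array median on every array. It averaged 5.27 in siNonTarget, 4.06 in siSox17, 4.31 in siFbxw7, 4.17 in siSocs3 and 3.99 in siRnf31. Both siNonTarget arrays were above all others for Frem1, so its lower level was not particular to siSocs3. Egfl6 measured 3.45 and 4.45 in siNonTarget and 5.25 and 5.44 in siSocs3, below the array median on every array. Without siNonTarget 1 its difference was 0.89 and the call was lost (adjusted p = 0.0718), as it was without either siSocs3 array (0.134 and 0.0997).

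Of 25 receptors, Ddr2, a receptor kinase for fibrillar collagens, rose by 0.90 ± 0.16 and Itga8, an integrin alpha chain, fell at -1.81 ± 0.43. Of 25 protease-related genes, Mmp9, a gelatinase, rose by 0.76 ± 0.20, and Plat, Plau, Reck and Mmp11 fell, Reck, a membrane inhibitor of matrix proteases, at -0.98 ± 0.11 (limma, adjusted p = 0.00367). Reck measured 7.82 and 7.82 in siNonTarget, 7.35 and 7.52 in siSox17, 7.64 and 7.66 in siFbxw7, 6.74 and 6.93 in siSocs3, and 7.39 and 7.52 in siRnf31. Both siSocs3 arrays were below all others, and this call was kept in all 20 alternative settings. Of 35 other matrix proteins, Ccn2 rose by 0.95 ± 0.25 and 5 fell, among them Fbn2, a microfibril protein of the embryo, at -1.99 ± 0.46, Vcan at -1.28 ± 0.24 and Thbs4 at -1.12 ± 0.27. The call was lost in 12 of 19 other settings for Mmp9, 11 of 20 for Ccn2 and 9 of 19 for Thbs4. For Itga8 it was lost in 7 of 20, for Fbn2 and Vcan each in 5 of 20, and for Ddr2 in 2 of 19. On the mean of all probe sets, 4 of the named differences shrank by over 1.5 times: Nid1 0.27, Plat -0.56, Plau -0.50 and Vcan -0.39, from 0.68, -1.29, -0.97 and -1.28, and none of the 4 passed then. No gene of the lists passed in the other comparisons with siNonTarget. Of all genes, 0.0055% passed there in siSox17 and 0% in siFbxw7 and siRnf31, so this does not set the lists apart. Some differences were as large in siSox17 as in siSocs3 and others were smaller. Ccn2 averaged 10.52 in siNonTarget, 11.66 in siSox17 and 11.47 in siSocs3, and Reck averaged 7.82, 7.44 and 6.84. The 20 calls became 5 without siNonTarget 1, 1 without siSocs3 1 and 12 without siNonTarget 1 and siFbxw7 1.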

How the data were processed

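Expression was measured on 10 Affymetrix arrays of NG4 cells, and the labels put 2 of them in each siRNA group. Per the labels, 5 ng of total RNA was amplified and biotin-labelled. The deposited values are linear intensities of 45101 probe sets, summarised by the authors with RMA per the submitters' processing notes (version not given in the sources used here). RMA makes the distributions of the arrays alike and compresses changes of dim probe sets. The log2 was taken here from the deposited values. The platform annotation gave 34958 probe sets 1 symbol, and 932 with several symbols were not used. The brightest probe set on average stood for its gene. The 49 members have 97 probe sets. All 10 arrays entered a single limma 3.58.1 fit (R 4.3.3) with a mean for each group, on 18194 genes. P-values were adjusted by Benjamini-Hochberg in each comparison and called under 0.05, two-sided. An exact permutation test of 2 against 2 arrays cannot reach that threshold. The fit was checked on simulated data. The members and lists were chosen with earlier results of these data known. Genes are named if they are members that passed in any comparison, had the smallest p against siNonTarget, are the brightest of a class or differ 2-fold between replicates, or if they are the 3 excluded genes, list genes that passed (4 a list at most, by size of change) or markers that passed. Alternatives changed the scaling, the filter on dim genes, the choice of probe sets, the arrays fitted and the replicate block. Plots were made in matplotlib 3.10.9 (Python 3.11.15).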

Additional observations from a re-analysis of the deposited data

Results flagged for a closer look

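Col14a1 differed between targeted groups in a direct test of that difference. It was higher in siSocs3 than in siFbxw7 by 0.78 and higher in siSocs3 than in siSox17 by 0.62 on the log2 scale (limma, adjusted p = 0.0161 and 0.0461). Its levels were below the array median on all arrays, and its other probe sets gave differences of 0.14 and 0.03, and of 0.16 and -0.13. Groups of 2 arrays are too small to look for a single outlying array.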

How the results depend on the processing

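No direction of the 36 named gene results reversed in any alternative. Only alternatives that changed the scaling, averaged probe sets or left out an array of the compared groups could move a difference. The others kept the difference and changed only its error or the genes tested, so they could not reverse a direction. Most of the 36 were named because they passed. Taken alone, another probe set of Col14a1 had the opposite sign in siSocs3 against siSox17. In siSocs3 against siNonTarget the 3 called genes became 0 to 5 when single arrays were left out: 0 without siNonTarget 1 or siSocs3 1, 1 without siSox17 1, siSox17 2 or siSocs3 2, and 5 without either siFbxw7 array. With both arrays of high actin difference left out, an alternative added after seeing the data, 2 passed, Col2a1 and Col5a3, and neither Col18a1 nor Col1a2 did. In siSox17 against siNonTarget, 2 passed when the groups were fitted alone. In siSocs3 against siSox17 the call became 0 without the dimmest 30% or 50% of genes, with the mean of all probe sets, with every probe set fitted, and without both arrays of high actin difference, and 0 to 1 when single arrays were left out. In siSocs3 against siFbxw7 it became 0 with either filter on dim genes, with the mean of all probe sets and without both high-actin arrays, 2 when the groups were fitted alone, and 0 to 2 when single arrays were left out. The filters kept 28 and 12 of the 49 genes. The causes were not tested.

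The labels number the replicates 1 and 2 in each group, but deviations of same-numbered arrays correlated from -0.26 to 0.42 over the 10 pairs of groups, so the numbers do not pair the arrays throughout. The highest correlation was between siNonTarget and siFbxw7, whose replicate 1 arrays were also those of high actin difference. With the replicate as a block, siSocs3 against siNonTarget gave 2 calls and siSocs3 against siSox17 gave 0, and the other counts did not change.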
